A study of Homo sapiens with 9 samples.

Results

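The comparison sets a pair of short hairpin RNAs aimed at the same gene, BAP1, directly against each other. It uses 6 of the 9 arrays of the series, the 3 labelled shBAP1 #2 and the 3 labelled shBAP1 #1, and covers all 19775 genes with a probe set of their own. All cells were U2OS, an established human osteosarcoma line. Each group received an shRNA plasmid by Lipofectamine 2000 and was selected with puromycin, and was then synchronised by a double thymidine block, which stops cells as they enter S phase. The other 3 arrays, shControl, carried a non-targeting hairpin under the same treatment, and they serve here as a reference level and in the estimate of the spread. The sequences of the hairpins are not given in the sources used here, and the level of BAP1 itself was not analysed here, so the depth of knockdown reached by either hairpin cannot be compared. The labels do not state whether replicates were separate cultures, so the p-values reflect only how these arrays vary, and part of that variation may be technical.

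BAP1, a tumour suppressor of the nucleus, is a deubiquitinase that works in complexes with ASXL proteins, HCF-1, OGT and FOXK factors and removes ubiquitin from histone H2A. A short hairpin RNA is cut by Dicer and loaded into Argonaute proteins, which then repress transcripts that pair with it. Hairpins against a shared target can differ in how far they deplete it and in which other transcripts they touch, so a direct comparison shows which genes a knockdown experiment does not hold in common.

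Values are log2 expression levels after robust multi-array averaging (RMA), so a difference of 1 is a doubling. Across probe sets, arrays of the same hairpin correlated at r = 0.995 to 0.997 and arrays of different hairpins at 0.977 to 0.987. Array 1 of shBAP1 #2 lay closer to the controls than its partners did (mean r = 0.989 against 0.981 for each of the others), and results that rest on it are given with and without it. The 3' minus 5' difference of actin, a sign of RNA integrity, was alike in both hairpins (0.40 ± 0.01 and 0.41 ± 0.04, SD, n = 3 each). Levels under 5.44, the midpoint of the probe set means, are treated as dim. The type I collagen gene COL1A1 stood at 10.81 to 12.26 over the 9 arrays and the blood cell marker PTPRC at 3.76 to 4.04. These 2 genes do not identify the cell line. Of 23 measured osteoblast and mineral genes 13 were dim, as were 12 of 22 blood cell markers.

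Between the hairpins, 6860 genes differed (34.7% of 19775; limma, Benjamini-Hochberg adjusted p below 0.05), 3382 higher with shBAP1 #2 (17.1%) and 3478 lower (17.6%). These shares are the background against which each gene list below is read. The 19775 genes include 7027 dim ones, which were seldom called. With dim genes left out 3220 were higher and 3338 lower, so both shares were larger among the brighter genes. For lists with few dim genes the background is therefore too low, and a modest excess over it is not interpreted. Such lists include oxidative phosphorylation (3 of 78 dim), mitochondrial ribosomal proteins (0 of 75) and p53 targets (2 of 33). The NRF2 (2 of 36) and G2 and mitosis (1 of 74) lists are also among them. Of all 19775 genes, 1335 were at least 1.5-fold higher (6.75%) and 1614 lower (8.16%), and at least 4-fold were 34 and 49. The median difference of all genes was 0.01. Every count of list members below uses the same call over all genes, the lists carry no test of their own, and a member that was not called may still differ by an amount that 3 arrays cannot resolve.

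**Figure D1:**
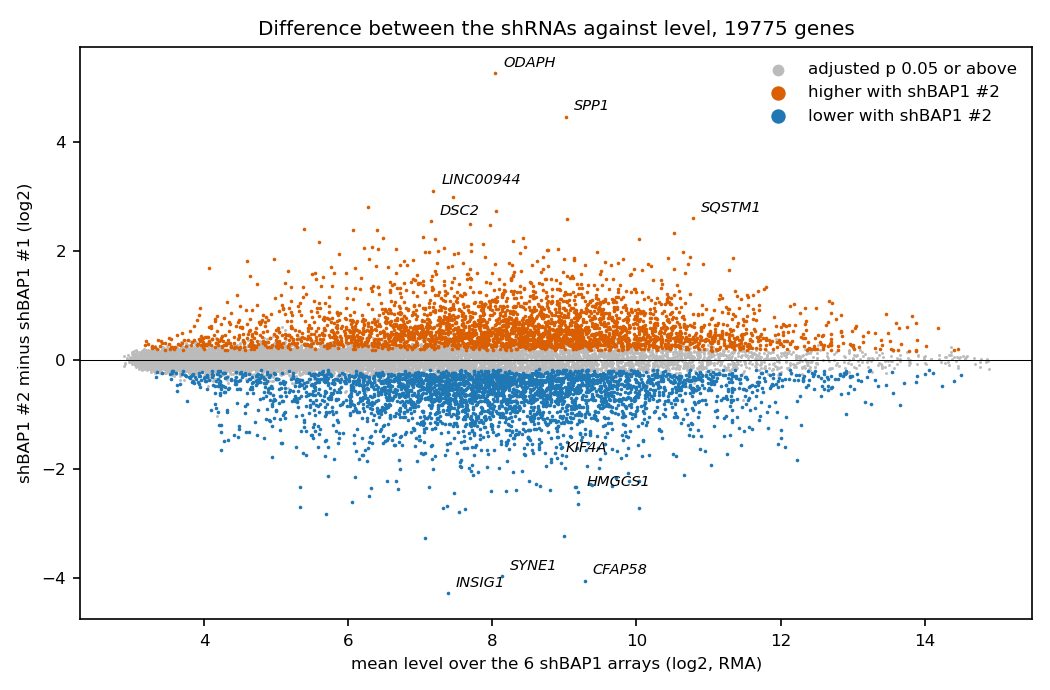
Each point is a gene, placed by its mean level over the 6 shBAP1 arrays (log2) and by the difference shBAP1 #2 minus shBAP1 #1 (log2); orange and blue mark the 3382 genes called higher and the 3478 called lower. The extremes are ODAPH at 5.27 and INSIG1 at -4.28.

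The gene furthest apart upwards was ODAPH, whose product takes part in enamel mineralisation. Its level was 5.66, 5.33 and 5.22 with shBAP1 #1, 10.43, 10.73 and 10.86 with shBAP1 #2, and 6.19, 6.04 and 5.90 in the controls. It was thus somewhat below the controls with the first hairpin (-0.64, limma adjusted p = 0.00584) and far above them with the other. ODAPH differed by 5.27 ± 0.14 between the hairpins (SE, n = 3; limma adjusted p = 3.61e-08). Its mean with shBAP1 #1 lay below 5.44, where background limits the signal, so that difference may be understated. SPP1, the gene of the bone matrix phosphoprotein osteopontin, was next. It read 6.62, 6.75 and 6.97 with shBAP1 #1, 11.07, 11.18 and 11.53 with shBAP1 #2, and 9.21, 9.05 and 9.72 in the controls. The hairpins therefore stood on opposite sides of the control level, -2.54 and 1.93 from it, and 4.47 ± 0.17 apart (adjusted p = 6.83e-07). A second SPP1 probe set gave a difference of only 0.50.

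Several others of the 15 genes most raised with shBAP1 #2 relative to shBAP1 #1 likewise straddled the control level. The deubiquitinase gene USP46 read 7.42, 7.80 and 8.02 with shBAP1 #1 and 10.13, 10.41 and 10.43 with shBAP1 #2, around controls of 9.59 to 9.65. For DSC2, a desmosomal cadherin, the values were 5.89, 5.90 and 5.84 against 8.13, 8.49 and 8.65. ELK3, an ETS-family transcription factor, stood at 9.09, 9.40 and 9.57 against 11.46, 11.66 and 11.96. The groups did not overlap for any of these, and the differences were 2.58, 2.55 and 2.34. The rest of the 15 were LINC00944 (3.11), ABRACL (3.0), HPCAL4 (2.81), RNA45SN5 (2.74), SQSTM1 (2.61), the clathrin-uncoating auxilin gene DNAJC6 (2.49), ADGRE1 (2.48), MATCAP2 (2.39), the muscle LIM protein gene CSRP3 (2.39) and the GABA transaminase gene ABAT (2.25). RNA45SN5 is read from ribosomal RNA, which has many near-identical copies, so its assignment is uncertain. HPCAL4, MATCAP2 and CSRP3 had means below 5.44 with shBAP1 #1, where background limits the signal. Other probe sets of LINC00944 gave differences from -0.06 to 0.65, and the other one of DNAJC6 gave 0.09. The other probe set of HPCAL4 gave 0.43, those of USP46 0.05 to 1.62 and those of DSC2 0.11 to 2.22.

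The gene furthest apart downwards was INSIG1, described with the sterol genes. CFAP58, a gene of cilia and flagella, followed with 11.38, 11.47 and 11.06 with shBAP1 #1 and 7.63, 7.27 and 6.87 with shBAP1 #2. The first hairpin stood well above the controls (8.16, 7.42 and 8.70) and the other at or somewhat below them, and the difference was -4.05 ± 0.28 (limma adjusted p = 4.67e-06), although a second probe set gave 0.06. SYNE1, which encodes the nuclear envelope spectrin nesprin-1, read 10.34, 10.67 and 9.33 against 7.75, 5.26 and 5.43, with all 4 of its other probe sets lower too (-2.08 to -0.47). A different pattern was seen for MAPRE1, whose product EB1 tracks growing microtubule ends. It was level between shBAP1 #1 (11.43, 11.32 and 11.44) and the controls (11.49, 11.36 and 11.37) and lower on all 3 arrays of shBAP1 #2 (9.68, 8.24 and 8.12), a difference of -2.72 ± 0.32 (adjusted p = 8.58e-05).

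Some of the remaining lower genes belong to flagella or germ cells: BBOF1 (-3.26, with another probe set at 0.21), the meiotic gene SHOC1 (-2.61, with another at 0.03) and MNS1 (-2.49). Their means with shBAP1 #2 all lay below 5.44, where background limits the signal. ADAMTS6 (-3.23), TMEM71 (-2.79), TRIM58 (-2.73), INSL4 (-2.69), the kinase gene MAP4K4 (-2.64), the inhibitor of differentiation ID4 (-2.44) and HMGCS1 (-2.42) were also among the 15. MAP4K4 was not called where shared-probe sets, whose probes match more than 1 transcript, were left out. The other ID4 probe sets gave -0.7 to -0.0. Across all 30 genes the groups of 3 did not overlap, a property that the choice of these genes required and that 43.9% of all genes had.

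**Figure D2:**
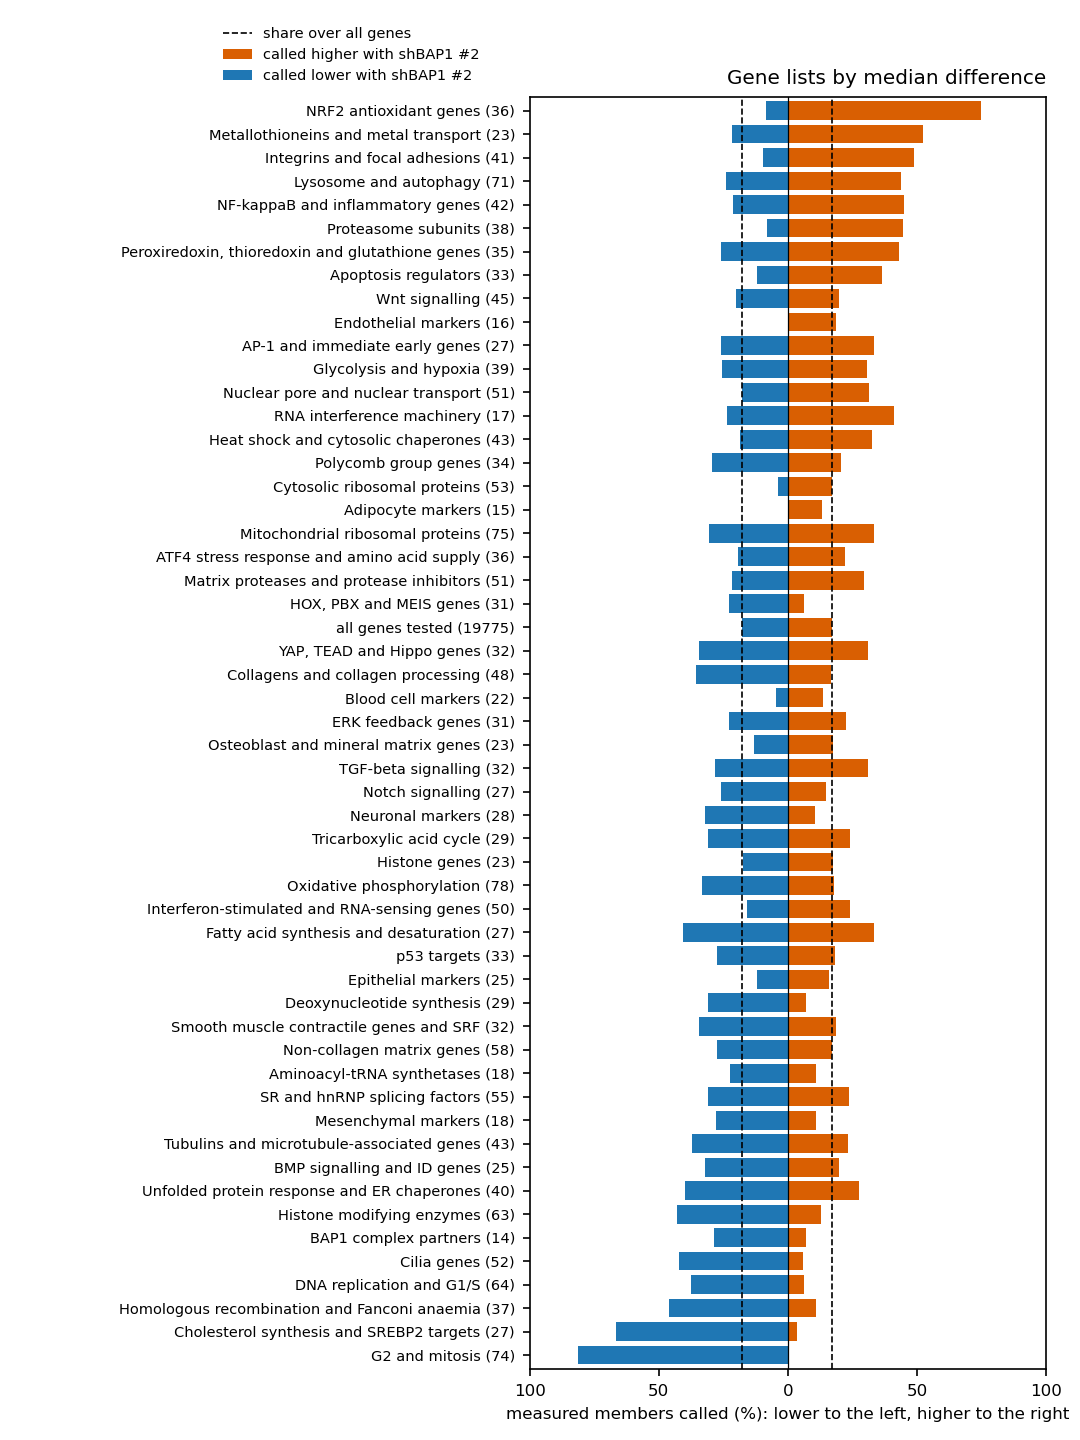
Bars show, for each gene list, the percentage of measured members (number in brackets) called lower (blue, left) or higher (orange, right) with shBAP1 #2 than with shBAP1 #1, and the dashed lines show the shares over all genes, 17.6% and 17.1%. The dashed lines include dim genes and are too low for lists with few dim genes. The longest orange bar is that of NRF2 antioxidant genes (27 of 36) and the longest blue bar that of G2 and mitosis genes (60 of 74).

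NRF2 antioxidant genes made up the list with the largest share higher with shBAP1 #2. NRF2 is a transcription factor that the adaptor KEAP1 keeps unstable, and oxidants or electrophiles release it to induce genes of glutathione synthesis, quinone reduction and NADPH supply. The autophagy receptor p62, product of SQSTM1, binds KEAP1 and can also release NRF2. Of 36 measured members 27 were higher with shBAP1 #2 (75.0%) and 3 lower (8.33%), and the median difference was 0.62 against 0.01 for all genes. The array medians of the list, each gene taken relative to its mean over 9 arrays, were -0.29, -0.32 and -0.24 with shBAP1 #1 and 0.29, 0.36 and 0.42 with shBAP1 #2. The controls lay between them at -0.03, -0.07 and -0.04. The counts were again 27 and 3 without array 1 of shBAP1 #2, and the higher count ran from 25 to 28 as each array was left out. With shared-probe sets left out, 17 of 29 were higher.

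SQSTM1 itself led the list. It read 9.47, 9.49 and 9.46 with shBAP1 #1, 11.89, 12.17 and 12.19 with shBAP1 #2, and 10.51, 10.80 and 10.39 in the controls, a difference of 2.61 ± 0.11 (limma adjusted p = 8.31e-07). Its 4 other probe sets ranged from -0.05 to 2.64. Each hairpin thus stood clear of the controls on its own side. NFE2L2, the gene of NRF2, read 9.69, 9.79 and 9.70 with shBAP1 #1 and 10.85, 10.60 and 10.88 with shBAP1 #2 (1.05 ± 0.08, adjusted p = 7.17e-06), around controls of 10.52, 10.52 and 10.58. Its 2 other probe sets gave differences of -0.08 and 0.69. KEAP1 differed by 0.31, and the gene of the small MAF partner MAFG by 1.18.

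The enzymes under NRF2 control followed. AKR1C3, an aldo-keto reductase, read 7.92, 7.83 and 7.91 with shBAP1 #1 and 9.66, 10.07 and 10.03 with shBAP1 #2 (2.03 ± 0.10). Its relatives AKR1C1 and AKR1C2 differed by 1.5 and 1.42, but their probe sets match several family members. AKR1C1 read -0.12 with shared-probe sets left out. TRIM16, a ubiquitin ligase with a role in NRF2 and p62 signalling, stood at 8.26, 8.49 and 8.57 against 10.00, 10.02 and 10.01. SLC7A11, the cystine importer that feeds glutathione synthesis, stood at 7.63, 7.64 and 8.10 against 9.37, 8.87 and 9.02. NQO1, the quinone reductase, stood at 10.71, 10.68 and 11.04 against 11.91, 12.05 and 12.02. In all of these the 3 arrays of shBAP1 #2 were high, those of shBAP1 #1 low, and the groups apart. The groups were apart for 43.9% of all genes and for 6690 of the 6860 called genes. These genes were picked from called members, so that separation is no further result.

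Glutathione synthesis and recycling showed the same direction, with GCLM at 0.84, GCLC at 0.61 and glutathione reductase, GSR, at 0.92. SRXN1, the gene of sulfiredoxin, differed by 1.27 ± 0.07, and here shBAP1 #1 (10.04, 9.88 and 9.96) matched the controls (10.00, 9.93 and 10.03) while shBAP1 #2 stood above both (11.19, 11.23 and 11.27). The 3 lower members of this list were the pentose phosphate enzymes PGD (-0.43) and TKT (-0.36) and the drug exporter ABCC1 (-0.33). The 2 other PGD probe sets gave 0.03 and 0.06. Lower redox and iron genes that stand in other lists, among them PRDX1 and SLC40A1, are given below and are not in this count. HMOX1, the haem oxygenase gene often used to report NRF2, was not called (0.24, adjusted p = 0.215), and its values of 8.17, 8.62 and 8.34 against 8.48, 8.87 and 8.50 overlapped.

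Promoter sequences from RefSeq (build GRCh38.p14, 250 bases before to 50 after the start) were searched on both strands for TGACNNNGC, a core of the antioxidant response element. It was present in 8 of the 29 list promoters in the table (27.6%), against 14.8% of 15384 promoters of measured genes. Members with it had a median difference of 0.52 and members without it 0.79. The matches of ME1, which makes NADPH (8.77, 8.78 and 8.88 with shBAP1 #1, 9.91, 9.88 and 9.93 with shBAP1 #2), GCLM and the carbonyl reductase gene CBR1 are shown. They differed most among called members with the letters upstream of their start, once a chromosome was left out of the choice. Members on that chromosome could not be chosen, whatever their difference. Capitals mark the match, which describes the letters only. ME1 is at chr6:83431150-83431218 and GCLM at chr1:93909431-93909494, both on the minus strand, and CBR1 is at chr21:36069835-36069903 on the plus strand.
ME1: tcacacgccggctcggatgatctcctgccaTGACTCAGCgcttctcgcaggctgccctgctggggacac
GCLM: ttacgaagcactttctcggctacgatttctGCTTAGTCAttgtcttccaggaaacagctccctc
CBR1: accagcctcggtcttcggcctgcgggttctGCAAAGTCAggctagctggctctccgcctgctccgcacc

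Genes of lysosomes and autophagy moved in both directions, more often upwards. Of 71 measured, 31 were higher with shBAP1 #2 (43.7%) and 17 lower (23.9%), with a median of 0.18. Counts were 32 and 16 without array 1 of shBAP1 #2, and 18 of 54 were higher with shared-probe sets left out. MAP1LC3B, whose product LC3 coats autophagosomes, read 9.89, 10.08 and 10.15 with shBAP1 #1, 11.62, 11.85 and 11.98 with shBAP1 #2, with a control mean of 11.11, a difference of 1.77 ± 0.11 (limma adjusted p = 2.82e-06). Its relative GABARAPL1 (1.21), the Beclin partner UVRAG (1.23) and BECN1 itself (0.91) were higher too, as were the cathepsin genes CTSB (0.93), CTSZ (0.68) and CTSL (0.52). Lower were MITF (-1.18), a regulator of lysosomal genes, the sialidase gene NEU1 (-1.06), the conjugation factors ATG12 (-0.93) and ATG3 (-0.56), and the receptors OPTN (-0.75) and CALCOCO2 (-0.74). SQSTM1 and the other cargo receptors named here thus pointed in opposite directions.

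Other stress and metal genes added to the same side. Of 23 genes of metallothioneins and metal transport, 12 were higher with shBAP1 #2 and 5 lower (median 0.39). Metallothioneins bind zinc and copper, and MT2A (0.80), MT1X (0.84), MT1F (0.96), MT1G (0.75), MT1E (0.60) and MT1H (0.62) were all called. Their probe sets cross-match within the family, so they do not count as separate genes, and with such probe sets left out 6 of 14 members of the list were higher. MT1X read 12.96, 13.04 and 13.16 against 13.88, 13.89 and 13.91. On the other side stood SLC40A1, the iron exporter ferroportin. It was 8.36, 8.24 and 8.27 with shBAP1 #1, level with the controls (8.34, 8.14 and 8.28), and 6.20, 5.66 and 5.98 with shBAP1 #2, a difference of -2.34 ± 0.12 (adjusted p = 1.08e-06), although a second, dimmer probe set gave -0.04. The transferrin receptor gene TFRC was lower as well (-0.67).

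Peroxiredoxin, thioredoxin and glutathione genes were mixed, 15 of 35 higher and 9 lower (median 0.12), and 8 and 5 of 27 with shared-probe sets left out. TXNIP, a thioredoxin inhibitor that responds to glucose, was the furthest apart, 8.72, 8.56 and 9.09 with shBAP1 #1 and 7.15, 6.54 and 6.36 with shBAP1 #2 (-2.11 ± 0.20), and its 2 other probe sets gave -2.90 and -2.71. PRDX3 and PRDX1, which reduce peroxides in mitochondria and the cytosol, were lower by 1.14 and 0.99, whereas the glutaredoxin gene GLRX (0.86) and the secreted peroxidase gene GPX3 (0.91) were higher. These peroxiredoxins thus pointed the other way from most NRF2 genes. Proteasome subunit genes were modestly higher, 17 of 38 against 3 lower (44.7% and 7.89%, median 0.12), with PSMD1 at 0.64 and PSMD2 at 0.62. That count was 14 without array 1 of shBAP1 #2, 11 without array 2 of shBAP1 #1 and 10 without array 2 of shBAP1 #2.

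**Figure D3:**
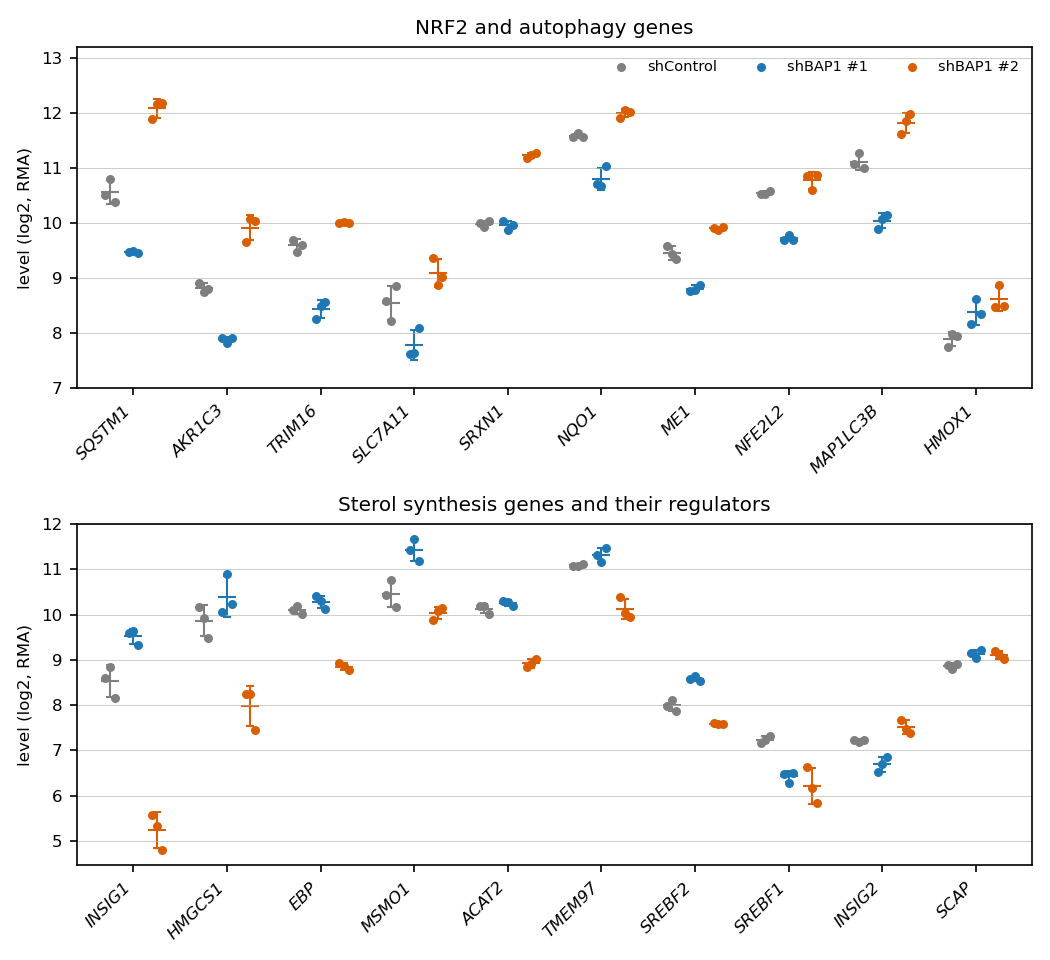
Levels (log2, RMA) of 10 NRF2 or autophagy genes (top) and 10 sterol genes or regulators (bottom) on each array; points are arrays, horizontal marks are group means and bars are 1 SD (n = 3). SQSTM1 lies at 9.46 to 9.49 with shBAP1 #1 and 11.89 to 12.19 with shBAP1 #2, and INSIG1 shows the reverse, 9.33 to 9.64 against 4.81 to 5.58.

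Cholesterol synthesis separated the hairpins in the opposite sense. The transcription factor SREBP2, escorted by SCAP, switches on the enzymes of sterol synthesis when sterols are scarce, and the INSIG proteins hold it back in the endoplasmic reticulum. Of 27 measured members 18 were lower with shBAP1 #2 (66.7%) and 1 higher (3.70%), with a median of -0.53. Array medians were 0.30, 0.33 and 0.31 with shBAP1 #1 and -0.35, -0.24 and -0.29 with shBAP1 #2, and the controls lay between at -0.01, 0.07 and -0.09. The counts were also 18 and 1 without array 1 of shBAP1 #2, and the lower count ran from 16 to 19 as each array was left out. With shared-probe sets left out 13 of 21 were lower and 2 higher (median -0.40).

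INSIG1, itself induced by SREBP2, read 9.6, 9.64 and 9.33 with shBAP1 #1, 5.58, 5.33 and 4.81 with shBAP1 #2, and 8.60, 8.84 and 8.15 in the controls. The difference of -4.28 ± 0.21 (limma adjusted p = 1.08e-06) was the lowest of all genes, and its 2 other probe sets gave -3.15 and -2.20. Its mean with shBAP1 #2 lay below 5.44. HMGCS1, the synthase that opens the mevalonate pathway, read 10.05, 10.90 and 10.24 against 8.24, 8.24 and 7.46. MSMO1, which demethylates sterols, stood at 11.42, 11.66 and 11.19 against 9.89, 10.09 and 10.14, with controls at 10.44, 10.77 and 10.17.

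Others of the list were near the controls with shBAP1 #1 and low with shBAP1 #2. The sterol isomerase gene EBP read 10.40, 10.29 and 10.13 against 8.92, 8.86 and 8.77 (-1.42 ± 0.09), with controls of 10.10, 10.20 and 10.02, and the thiolase gene ACAT2 was alike (10.31, 10.27 and 10.19 against 8.84, 8.90 and 9.03). TMEM97, a sterol-regulated membrane protein, was lower by 1.19. The remaining lower members were HSD17B7 (-1.12), the sterol carrier STARD4 (-1.12), DHCR7 (-1.07), LSS (-1.01), SQLE (-0.78), NSDHL (-0.70), SC5D (-0.53), PMVK (-0.41), MVK (-0.40), IDI1 (-0.30), FDPS (-0.24) and SREBF2.

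The regulators did not move as 1 unit. SREBF2, the gene of SREBP2, was 8.58, 8.64 and 8.54 with shBAP1 #1 and 7.60, 7.58 and 7.59 with shBAP1 #2 (-1.0 ± 0.07, adjusted p = 4.93e-06), around controls of 7.99, 8.11 and 7.88. SREBF1, the gene of the related factor that favours fatty acid synthesis, was not called between the hairpins (6.49, 6.29 and 6.51 against 6.64, 6.17 and 5.84; -0.21, adjusted p = 0.377). SCAP differed by -0.02 (adjusted p = 0.843). INSIG2, the other member of the INSIG pair, was the 1 gene of the list that was higher, at 7.68, 7.47 and 7.38 against 6.52, 6.70 and 6.85 (0.82 ± 0.10).

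A sterol response element core, TCACNCCAC, was searched in the same promoters on both strands. It occurred in 1 of 24 list promoters (4.17%) and in 1.09% of all, and that 1 was SREBF2, which is shown for that reason with its match in capitals (chr22:41832942-41833010, plus strand).
SREBF2: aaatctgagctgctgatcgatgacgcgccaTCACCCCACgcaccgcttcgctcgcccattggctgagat

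Fatty acid genes were divided, 9 of 27 higher and 11 lower. The committed and terminal enzymes of synthesis were lower with shBAP1 #2: acetyl-CoA carboxylase, ACACA, read 9.54, 9.64 and 9.64 against 8.80, 8.39 and 8.49 (-1.04), and fatty acid synthase, FASN, 8.98, 9.01 and 8.92 against 8.10, 8.03 and 8.19 (-0.86). ACACA was no longer called with the mean of its probe sets, since its other probe set gave 0.93, the other FASN probe set gave 0.12, and the lower count was 4 of 19 with shared-probe sets left out. Triglyceride synthesis went the other way, with GPAM at 0.86 and DGAT1 at 0.81. ELOVL6 (0.72) and the citrate lyase gene ACLY (0.46) were higher too.

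**Figure D4:**
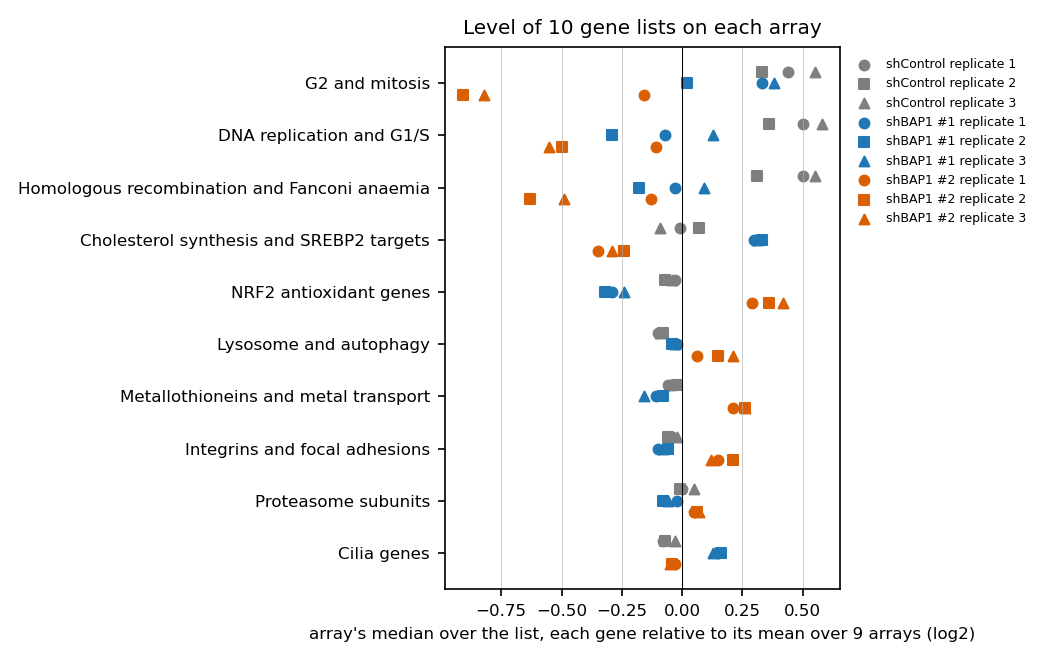
Each marker is an array's median over a gene list, every gene taken relative to its mean over the 9 arrays (log2), for 10 lists; colours give the group and shapes the replicate. For NRF2 and cholesterol genes the hairpins lie on either side of the controls, while for G2 and mitosis genes shBAP1 #2 lies from -0.91 to -0.16 and shBAP1 #1 from 0.02 to 0.38.

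Cell cycle genes made up the largest block that was lower with shBAP1 #2. Genes of G2 and mitosis are switched on late in the cycle by the MuvB complex with B-MYB and FOXM1. In bulk RNA, fewer cells in a phase and less RNA per cell cannot be told apart, and the distribution of cells over the cycle was not analysed here. Of 74 measured members 60 were lower (81.1%) and 0 higher, with a median of -0.85. The array medians were 0.33, 0.02 and 0.38 with shBAP1 #1, -0.16, -0.91 and -0.82 with shBAP1 #2, and 0.44, 0.33 and 0.55 in the controls. Array 1 of shBAP1 #2 was thus the nearest to shBAP1 #1. Without it 63 members were lower, and as each array was left out the count ran from 48 to 63 with 0 higher. With shared-probe sets left out 40 of 58 were lower and 1 higher.

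The chromosome-bound kinesin KIF4A read 9.85, 9.54 and 10.00 with shBAP1 #1, 8.75, 7.70 and 7.55 with shBAP1 #2, and 9.95, 9.92 and 9.93 in the controls. It was level between the controls and shBAP1 #1 and 1.80 ± 0.25 lower with shBAP1 #2 (limma adjusted p = 0.000285). KIF20A and KIF2C, kinesins of the midzone and the kinetochore, were lower by 1.71 and 1.56 in the same way. The phosphatase gene CDC25B differed in that shBAP1 #1 (9.75, 9.58 and 9.71) stood above the controls (9.0, 8.97 and 8.97) and shBAP1 #2 (8.46, 8.01 and 7.78) below. PLK1, a mitotic kinase, was above the controls with shBAP1 #1 (8.81, 8.47 and 8.66 against 7.81, 8.02 and 8.11) and at their level with shBAP1 #2 (8.14, 7.87 and 7.63). The proliferation marker MKI67 read 8.86, 8.44 and 8.96 against 8.25, 7.05 and 6.91. The cyclin B1 gene CCNB1 read 11.92, 11.74 and 11.95 against 11.41, 10.44 and 10.45. CDK1, its kinase, was called (-0.60, adjusted p = 0.0142), but its values of 10.59, 10.31 and 10.74 against 10.32, 9.73 and 9.78 overlapped. The centromere genes CENPI and CENPF differed by -1.47 and -1.44, and the transcription factor FOXM1 by -1.10. CENPF was not called with shared-probe sets left out, and the 3 other CENPI probe sets ranged from -1.18 to 0.07. Among the 14 members not called were BIRC5 (0.21), CCNB2 (0.17), ANLN (0.15) and AURKB (-0.42).

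Promoters of these genes often hold a CHR, the element bound by MuvB. TTTGAA or TTCGAA was found on either strand in 44 of 62 list promoters (71.0%) against 13.3% of all, and CCAAT in 46 of 62 (74.2%) against 36.1%. Members with the CHR letters had a median difference of -0.83 and members without them -0.88. KIF4A, CEP55, a gene of the last step of cell division (-1.41), and MKI67 (-1.35) are shown, with the match nearest the start in capitals. Among called members with a match upstream of the start they differed most, with the same chromosome left out as for the NRF2 genes. They lie at chrX:70290040-70290103 on the plus strand, chr10:93496466-93496531 on the plus strand and chr10:128126424-128126482 on the minus strand.
KIF4A: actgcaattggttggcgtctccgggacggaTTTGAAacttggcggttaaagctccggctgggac
CEP55: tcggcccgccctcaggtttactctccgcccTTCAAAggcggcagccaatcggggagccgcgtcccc
MKI67: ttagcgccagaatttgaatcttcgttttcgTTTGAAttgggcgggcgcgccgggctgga

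**Figure D5:**
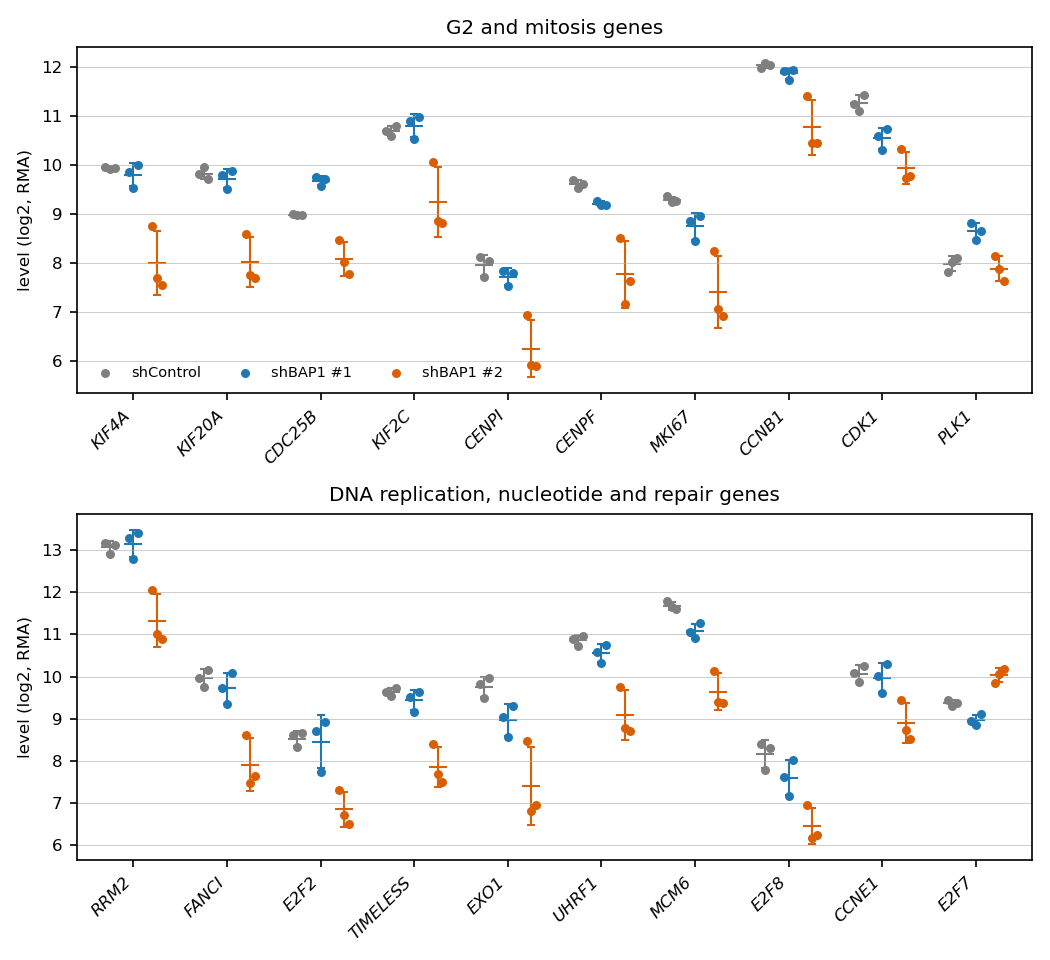
Levels (log2, RMA) of 10 G2 and mitosis genes (top) and 10 genes of DNA replication, nucleotide supply and repair (bottom) on each array; points are arrays, horizontal marks are group means and bars are 1 SD (n = 3). Array 1 of shBAP1 #2 is the highest of its group in all but E2F7, and E2F7 is the 1 gene drawn that is higher with shBAP1 #2, at 9.85 to 10.18 against 8.85 to 9.11.

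DNA replication and G1/S genes differed less. Of 64 measured 24 were lower with shBAP1 #2 (37.5%) and 4 higher (6.25%), with a median of -0.35. The array medians overlapped, at -0.07, -0.29 and 0.13 with shBAP1 #1 and -0.11, -0.50 and -0.55 with shBAP1 #2, all below the controls (0.36 to 0.58). The lower count was 35 without array 1 of shBAP1 #2, 14 without array 2 of it, 13 without array 3 of it and 14 without array 3 of shBAP1 #1 (with 7 higher), and 15 of 50 with shared-probe sets left out. MCM6, a subunit of the replicative helicase, read 11.05, 10.91 and 11.26 against 10.14, 9.40 and 9.38, below controls of 11.60 to 11.78 in both cases (-1.43 ± 0.18, limma adjusted p = 0.000129). The other MCM6 probe set gave only -0.29. UHRF1, which couples replication to DNA methylation, differed by -1.46, and the cyclin E gene CCNE1 by -1.08 (0.08 on its other probe set). E2F2 differed by -1.61 (-0.35 and -0.21 on its other probe sets) and E2F8 by -1.15. E2F7, a repressor of the same family, went the other way, 8.94, 8.85 and 9.11 against 9.85, 10.05 and 10.18 (1.06 ± 0.10). PCNA (-0.12) and CCNE2 (-0.05) were not called.

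In nucleotide supply, 9 of 29 genes were lower and 2 higher, 1 higher without array 1 of either hairpin. RRM2, the regulated subunit of ribonucleotide reductase, read 13.28, 12.78 and 13.40 with shBAP1 #1, level with the controls (13.16, 12.91 and 13.13), and 12.05, 11.02 and 10.90 with shBAP1 #2, a difference of -1.83 ± 0.27 (adjusted p = 0.000335). The folate enzymes MTHFD2 and MTHFD1 were lower by 1.28 and 0.95, but the other MTHFD1 probe set gave 0.49. PPAT, of purine synthesis, was higher (0.62), and its 2 other probe sets gave -0.17 and 0.57. Of 37 genes of homologous recombination and the Fanconi pathway, 17 were lower (45.9%) and 4 higher, 21 lower without array 1 of shBAP1 #2, and 11 and 10 without its arrays 2 and 3. FANCI, the partner of FANCD2 in the pair ubiquitinated at stalled forks, read 9.73, 9.35 and 10.08 against 8.62, 7.48 and 7.64 (-1.81 ± 0.27). TIMELESS (-1.59), the nuclease gene EXO1 (-1.56) and the BRCA1 partner BARD1 (-1.07) followed, while CHEK1 (0.42) and NBN (0.45) were higher. The other TIMELESS probe set gave -0.13, and those of BARD1 gave -1.36 and -0.05. Of 33 targets of p53, 6 were higher (18.2%) and 9 lower (27.3%), 5 lower of 26 with shared-probe sets left out, with GADD45A at 0.65 and DDB2 at -0.70.

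Collagen genes were lower with shBAP1 #2 more often than higher. Of 48 collagen and collagen-processing genes 17 were lower with shBAP1 #2 (35.4%) and 8 higher (16.7%), and the median was -0.02. With dim genes left out 18 of 37 were lower and 7 higher, with a median of -0.21, and with shared-probe sets left out 10 of 36 were lower. COL5A2 read 9.33, 9.36 and 9.06 with shBAP1 #1, 7.60, 7.65 and 7.65 with shBAP1 #2 and 6.96, 7.06 and 6.75 in the controls (-1.61 ± 0.10, limma adjusted p = 2.61e-06), so both hairpins were above the controls and the first far more so. COL11A1 differed by -1.40, with shBAP1 #2 near the controls. LOXL1, a cross-linking oxidase, was the reverse, 7.91, 8.20 and 8.37 against 9.48, 9.79 and 9.6. Outside the collagens, 16 of 58 matrix genes were lower and 10 higher, with 10 lower of 47 with shared-probe sets left out. The fibronectin gene FN1 read 12.23, 12.25 and 12.19 with shBAP1 #1 and 10.69, 10.69 and 10.62 with shBAP1 #2, next to controls of 10.34 to 10.51, and all 6 of its other probe sets were lower (-1.59 to -0.50). TGFBI, a collagen-binding matrix protein, read 11.69, 11.67 and 11.78 against 9.72, 9.6 and 9.50 (-2.11 ± 0.08). FN1 and TGFBI were thus highest with shBAP1 #1, and their shBAP1 #2 values lay closer to the controls (TGFBI mean 10.00).

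Contractile genes split by gene. TAGLN, the actin-binding transgelin, stood at 9.92, 9.38 and 8.95 with shBAP1 #1 and 7.66, 7.74 and 7.72 with shBAP1 #2, above controls of 6.94 to 7.33, and was not called with shared-probe sets left out. MYLK, the myosin light chain kinase, was at 10.10, 10.30 and 9.90 against 8.73, 8.52 and 8.45. The tropomyosins went the other way, TPM4 at 7.40, 7.58 and 7.56 against 9.0, 9.08 and 9.13, and TPM2 at 11.01, 11.13 and 11.25 against 12.46, 12.43 and 12.52. In all, 11 of 32 members were lower and 6 higher. Proteases and their inhibitors gave 15 higher and 11 lower of 51. ADAM10, a sheddase that also cleaves Notch, was 8.48, 9.06 and 9.13 with shBAP1 #1 and 10.66, 10.63 and 10.91 with shBAP1 #2, the level of the controls (10.55 to 10.60). The lower count fell to 7 without array 1 of shBAP1 #1 and to 5 of 39 with shared-probe sets left out.

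Integrins and focal adhesion genes were more often higher with shBAP1 #2, 20 of 41 (48.8%) against 4 lower (9.76%), with a median of 0.24. The counts were 19 and 5 without array 1 of shBAP1 #2, and 13 of 35 were higher with shared-probe sets left out. FERMT2, the integrin activator kindlin-2, read 9.43, 9.76 and 9.78 with shBAP1 #1, 11.36, 11.69 and 11.88 with shBAP1 #2, and 10.85, 10.78 and 10.63 in the controls (1.99 ± 0.14, limma adjusted p = 4.49e-06). The caveolin genes CAV2 (1.40) and CAV1 (1.04), LPP (1.04) and the alpha chains ITGA2 (0.87), ITGA4 (0.84), ITGA6 (0.75) and ITGAV (0.68) were higher. The common beta chain ITGB1 was lower, 13.58, 13.63 and 13.49 against 12.84, 12.64 and 12.88 (-0.78), with its other probe sets between -1.04 and 0.05. So alpha and beta chains of the same receptors differed in direction.

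Signalling lists were mostly mixed. In the TGF-beta list (10 higher, 9 lower of 32) the antagonist FSTL1 was 9.15, 9.35 and 9.51 against 10.86, 11.14 and 11.20, and the activin subunit INHBA was higher by 1.16. The receptors ACVR2B (1.25) and TGFBR1 (1.15) were higher, while GDF15, a stress-induced ligand, was lower (-1.84) but not with shared-probe sets left out. In the BMP list (5 higher, 8 lower of 25) the inhibitors of differentiation ID1 and ID2 were lower by 1.44 and 1.05. For ID1 the values were 12.80, 12.93 and 12.44 with shBAP1 #1 and 11.62, 11.03 and 11.18 with shBAP1 #2, on either side of the control mean (11.93). The BMP ligand BMP5 was higher (1.25).

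Of 32 genes of the Hippo pathway 10 were higher and 11 lower. NF2, the upstream tumour suppressor merlin, read 10.42, 10.51 and 10.48 with shBAP1 #1 and 9.13, 8.13 and 8.23 with shBAP1 #2, around controls of 8.89 to 9.37 (-1.98 ± 0.22, limma adjusted p = 6.81e-05), and its 7 other probe sets were all lower (-1.78 to -0.39). The coactivator TAZ, gene WWTR1, was 8.46, 8.48 and 8.65 against 7.30, 6.10 and 6.33, and its DNA-binding partner TEAD2 was lower by 1.60. SAV1 (1.20) and the target ANKRD1 (0.97) were higher. In the Wnt list (9 higher, 9 lower of 45) the secreted antagonist DKK3 was 8.72, 8.88 and 9.18 against 11.02, 11.23 and 11.20 (2.22 ± 0.11), while LEF1 (-1.55) and WNT5A (-1.18) were lower. DKK1 was lower by 1.66 at levels below 5.44 in both groups. In the Notch list (4 higher, 7 lower of 27) the DNA-binding factor RBPJ was higher by 1.55 and its coactivators MAML2 and MAML1 lower by 1.53 and 0.97. RBPJ and WNT5A were not called with shared-probe sets left out.

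Immediate early and ERK-responsive genes gave 9 higher and 7 lower of 27, and 7 and 7 of 31. EGR1 was 11.72, 12.14 and 12.24 against 10.95, 11.39 and 11.04, the level of the controls, and JUND was lower by 1.13, while KLF6 was higher by 1.15. PHLDA1 (-1.45) was high with shBAP1 #1, at 8.59, 8.47 and 8.62 against controls of 6.67 to 7.0. The cyclin D1 gene CCND1 was higher with shBAP1 #2, 9.85, 9.85 and 10.05 against 8.77, 8.92 and 9.09 (0.99 ± 0.09), and FGFR1 by 1.09. NF-kappaB and inflammatory genes were higher for 19 of 42 (45.2%) and lower for 9 (21.4%), with a median of 0.16 and counts of 20 and 9 without array 1 of shBAP1 #2. The factors themselves were among the higher ones, NFKB2 (0.99), RELB (0.78), RELA (0.62) and NFKB1 (0.42), as were the inhibitors NFKBIA (1.30) and NFKBIE (1.24), the cytokine IL32 (2.02) and TNFRSF9 (1.75). IL32 read 7.57, 8.08 and 7.60 against 9.74, 9.85 and 9.73. NFKBIA was not called with shared-probe sets left out. Lower were TNIP1 (-1.30), PTGS2 (-1.30) and the chemokines CXCL3 (-1.03) and CCL2 (-0.95), and IL6 was not called (-0.30).

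The machinery that processes hairpins was itself unequal. Of 17 genes of RNA interference 7 were higher with shBAP1 #2 and 4 lower. DICER1, the enzyme that cuts hairpins, read 8.40, 8.41 and 8.40 with shBAP1 #1, 9.43, 9.65 and 9.73 with shBAP1 #2, and 9.66, 9.43 and 9.39 in the controls (1.20 ± 0.09, limma adjusted p = 7.61e-06). It was thus low with the first hairpin and at control level with the other, and its 5 other probe sets ranged from -0.04 to 1.27. DROSHA, which cuts primary microRNA transcripts, showed the opposite, 10.14, 10.06 and 10.20 against 9.42, 8.64 and 8.72 (-1.21 ± 0.17), with the controls at 9.84 to 9.94. Of the Argonaute genes AGO2 (0.48), AGO3 (0.52) and AGO4 (0.60) were higher and AGO1 lower (-0.46), and the GW182 gene TNRC6A was higher (0.89).

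Interferon-stimulated and RNA-sensing genes, which foreign double-stranded RNA can induce, did not move together. Of 50 measured 12 were higher with shBAP1 #2 (24.0%) and 8 lower (16.0%), with a median of -0.07, and 7 of 37 were higher with shared-probe sets left out. The lower count was 5 without array 3 of shBAP1 #2. IRF9, a subunit of the interferon-activated factor, was 9.10, 9.23 and 9.26 against 8.04, 7.67 and 7.66 (-1.41), on either side of the controls. IFIT1 was lower by 1.44, while ISG20 (1.42), IFIT5 (0.97), IRF1 (0.93) and the immunoproteasome gene PSMB9 (0.87) were higher. MX1 (-0.07), OAS1 (-0.09) and ISG15 (-0.10) were not called. The interferon response element motif, searched on both strands, stood in 23 of 40 list promoters (57.5%) against 2.94% of all, and members with them had a median difference of -0.07 and those without 0.06.

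Chromatin regulators leaned lower with shBAP1 #2. Of 63 histone and DNA modifying enzymes 27 were lower (42.9%) and 8 higher (12.7%), with a median of -0.16, and 25 and 9 without array 1 of shBAP1 #2. The dioxygenase gene TET3 read 9.58, 9.33 and 9.48 against 8.43, 8.32 and 8.46 (-1.05 ± 0.08, limma adjusted p = 7.44e-06), and the acetyltransferase genes KAT6B (-0.87), CREBBP (-0.58) and EP300 (-0.55) and the methyltransferase gene DNMT1 (-0.87) were lower. SETD7, a lysine methyltransferase, was higher (0.86), at 8.24, 8.52 and 8.81 against 9.55, 9.26 and 9.33, both below the controls (10.14 to 10.23). Of 14 partners of BAP1, 4 were lower and 1 higher, but 2 and 2 with the mean of each gene's probe sets and 7 and 1 with array weights. ASXL2, which activates BAP1, was 10.68, 10.64 and 10.58 against 10.10, 10.07 and 10.19 (-0.51 ± 0.07), and MBD6, which binds the complex, was lower by 1.08 but not with shared-probe sets left out. The demethylase gene KDM1B was the higher one (1.75). ASXL1 (-0.18), OGT (-0.07) and YY1 (0.10) were not called.

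Polycomb group genes gave 7 higher and 10 lower of 34. CBX2, a reader of methylated histone H3, was 9.36, 9.11 and 9.53 against 8.27, 7.26 and 7.24 (-1.74), and EZH2, the methyltransferase of complex 2, was lower by 1.13, whereas SCML1 (1.34), SCML2 (0.95) and PCGF5 (0.90) were higher. The higher count was 4 without array 1 of shBAP1 #1. Of 31 genes of the HOX, PBX and MEIS families 7 were lower and 2 higher, the latter 4 without array 1 of shBAP1 #2, led by MEIS1 (-1.74). Of 23 histone genes 4 were higher and 4 lower, and each count fell to 2 as single arrays were left out: the higher one without array 2 or 3 of shBAP1 #1 or array 3 of shBAP1 #2, and the lower one without control array 1 or 2, array 1 or 2 of shBAP1 #1 or any array of shBAP1 #2. Splicing factors of the SR and hnRNP families gave 13 higher and 17 lower of 55, and the higher count was 7 with the 6 shBAP1 arrays alone and 7 and 8 without array 1 of shBAP1 #1 and array 3 of shBAP1 #2.

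Protein folding, translation and mitochondrial lists moved in both directions. Of 40 genes of the unfolded protein response and chaperones of the endoplasmic reticulum, 16 were lower (40.0%) and 11 higher, the latter 7 without array 1 or 3 of shBAP1 #1 or array 3 of shBAP1 #2. CANX, the lectin chaperone calnexin, was 10.22, 10.56 and 10.44 with shBAP1 #1 and 12.10, 12.32 and 12.41 with shBAP1 #2 (1.87 ± 0.10), with controls of 11.77 to 11.86, while PDIA4 (-1.05) and DNAJC3 (-0.91) were lower. The ATF4 list gave 8 higher and 7 lower of 36, with PPP1R15A at 1.09 and CEBPG at -1.21, with 5 higher without array 1 or 2 of shBAP1 #1 or array 2 of shBAP1 #2, and 4 lower without array 2 or 3 of shBAP1 #2. Of 18 aminoacyl-tRNA synthetase genes 2 were higher and 4 lower, 1 higher without control array 1, array 1 or 2 of shBAP1 #1 or array 1 or 3 of shBAP1 #2. Heat shock and cytosolic chaperone genes gave 14 higher and 8 lower of 43, among them the small heat shock gene CRYAB (-1.16) and the chaperonin gene CCT2, 11.94, 12.30 and 12.36 against 13.21, 13.26 and 13.25, the level of the controls.

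Of 53 cytosolic ribosomal protein genes 9 were higher and 2 lower. The counts depended on the model: 15 were higher and 7 lower when the spread was fitted as a trend on the level, 5 were higher without array 1 of shBAP1 #1, and 1 was lower without array 3 of shBAP1 #2. Differences were small apart from RPS6 (0.68, but -0.04 with shared-probe sets left out) and RPL36 (-0.74). Mitochondrial ribosomal protein genes differed in both directions, 25 higher and 23 lower of 75 (33.3% and 30.7%), and 9 and 11 of 44 with shared-probe sets left out. MRPL18 was 11.43, 11.33 and 11.35 against 10.23, 9.37 and 9.32 (-1.73), and MRPL46 was 7.79, 8.08 and 8.36 against 9.59, 9.61 and 9.49 (1.48), the latter at control level. Of 78 genes of oxidative phosphorylation 26 were lower (33.3%) and 14 higher, with 14 lower of 66 with shared-probe sets left out. ATP5F1B, the catalytic subunit of ATP synthase, was lower by 1.05 and the complex I gene NDUFS4 higher by 1.02. The pair that forms the mitochondrial pyruvate carrier split, MPC2 at 8.49, 8.75 and 9.11 against 10.46, 10.55 and 10.54 (1.74) and MPC1 at 10.56, 10.46 and 10.68 against 9.84, 9.54 and 9.48 (-0.94). They stand in a list of 29 with the tricarboxylic acid cycle, of which 7 were higher and 9 lower, 4 higher without array 1 of shBAP1 #1. Glycolysis and hypoxia genes gave 12 higher and 10 lower of 39, with BNIP3 at 1.21 and ALDOC at -1.16.

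Genes of cilia were lower with shBAP1 #2 for 22 of 52 (42.3%) and higher for 3 (5.77%), with a median of -0.20, and 23 and 2 without array 1 of shBAP1 #2. The array medians were 0.15, 0.16 and 0.13 with shBAP1 #1, -0.03, -0.04 and -0.05 with shBAP1 #2 and -0.08, -0.07 and -0.03 in the controls, so it was shBAP1 #1 that stood apart. CEP164, a protein of the mother centriole's appendages, was 9.32, 9.20 and 9.23 against 8.43, 7.38 and 7.31 (-1.54), IFT22 was lower by 1.27, and IFT57 was higher by 1.11. FOXJ1 (-0.05) and the axonemal gene DNAI1 (0.05), which mark motile cilia, were not called. Tubulins and microtubule-associated genes gave 16 lower and 10 higher of 43.

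Nuclear transport genes gave 16 higher and 9 lower of 51, with 16 lower without array 1 of shBAP1 #2. The importin genes diverged: KPNA3 read 7.61, 7.92 and 8.24 against 9.75, 9.57 and 9.6 (1.72) and KPNB1 was higher by 1.27, both at control level with shBAP1 #2, whereas IPO5 read 10.96, 10.93 and 10.98 against 9.74, 8.90 and 8.97 (-1.76). Apoptosis regulators were higher for 12 of 33 and lower for 4, led by the mitochondrial protease HTRA2 (1.01). BCL2A1, an anti-apoptotic relative of BCL2, was called (0.65, limma adjusted p = 0.0397), but its values of 8.54, 9.19 and 8.84 against 9.13, 9.61 and 9.76 overlapped, and both hairpins stood far above the controls (6.68, 6.84 and 7.37).

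Markers of bone and of other cell types were counted in the same way. Of 23 osteoblast and mineral genes 4 were higher and 3 lower, and SPP1, ALPL (0.94), RUNX2 (-1.17) and COL1A1 (-1.10) pointed in different directions. Of 25 epithelial markers 4 were higher and 3 lower, 5 lower without array 1 of shBAP1 #2. Of 18 mesenchymal markers 2 were higher and 5 lower, 1 higher without array 1 of either hairpin or array 2 of shBAP1 #2, with the fibroblast protease gene FAP at -0.89. Neuronal markers were lower for 9 of 28 (32.1%) and higher for 3, with 5 lower of 17 when dim genes were left out. Their array medians did not overlap but lay close together, at 0.04, 0.03 and 0.01 with shBAP1 #1 and -0.02, -0.01 and -0.03 with shBAP1 #2. REST, the repressor of neuronal genes, was 7.02, 7.42 and 7.57 with shBAP1 #1 and 8.11, 8.12 and 8.36 with shBAP1 #2 (0.86), the latter at control level. The lower neuronal genes SCG2, GAD1 and SYT1 all had means below 5.44 with shBAP1 #2. The counts of higher and lower members were 3 and 0 of 16 for endothelial, 3 and 1 of 22 for blood and 2 and 0 of 15 for adipocyte markers. The endothelial array medians did not overlap either (-0.06 to 0.01 and 0.02 to 0.03), and 1 of 5 was higher with dim genes left out. Without array 1 of shBAP1 #1 or array 2 of shBAP1 #2 the higher counts were 1 for blood and 1 for adipocyte markers, and without array 3 of shBAP1 #1 2 blood markers were lower. Whether other cell types had a part in any result was not tested.

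Neighbouring genes differed together in few places. Over 19250 windows of 20 neighbouring measured genes, the 5th and the 95th percentile of the window medians were -0.10 and 0.10. The most positive ran from TSPAN10 to MILIP, with a median of 0.30 and 12 genes higher against 1 lower, and the most negative from CIZ1 to ENDOG, with -0.42 and 12 lower against 3 higher. Between HECTD3 and POMGNT1, 12 of 20 were lower and 0 higher (-0.38).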

How the data were processed

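RNA from U2OS cells with shControl, shBAP1 #1 or shBAP1 #2 (3 arrays each, grouped by sample title) was labelled with biotin and hybridised to oligonucleotide arrays. The authors deposited log2 levels per probe set. RMA is the method named by the submitters' processing notes, without a version. RMA equalises the distribution of arrays, so a shift of all transcripts 1 way is removed and differences of dim probe sets are compressed. Of 54675 probe sets, 41097 had 1 gene symbol in the platform annotation, and per gene the one with the highest mean over 9 arrays was kept (19775 genes). A suffix s, x or a marks probe sets whose probes match several transcripts ("shared-probe sets" here).

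limma 3.58.1 in R 4.3.3 (lmFit, eBayes, two-sided, Benjamini-Hochberg over all genes, threshold 0.05) was fitted to all 9 arrays in 3 groups with no covariate (6 residual and 4.33 prior degrees of freedom). SE comes from this fit. In simulated arrays that kept each gene's measured mean and spread (19775 genes, this contrast), 59.7% of 67 genes shifted by 0.5, 92.5% of 67 shifted by 1 and 100% of 66 shifted by 2 were called, and 2.33% of calls were false. The simulation shifted only these genes, far fewer than the 6860 called in the data. It drew noise independently for each array, with 1 spread per gene for all groups. Its rates therefore describe that setting and do not give the rate of false calls in the data. The number of arrays limits the precision.

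Named genes were the 15 highest and 15 lowest differences among called genes with a mean at or above 5.44 and groups that do not overlap, and up to 6 called members with the largest difference per list (53 lists). Other list members named were chosen after their values were seen. Of the 15 lowest, 1 is not reported here. The members and lists were chosen with earlier results of these data known. Alternatives were the 6 shBAP1 arrays alone, a replicate block, dim genes left out, the mean of a gene's probe sets, shared-probe sets left out, cyclic loess, median centring, a trend of the spread, array weights and each array left out. Plots used matplotlib 3.10.9 and Python 3.11.15.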

Additional observations from a re-analysis of the deposited data

Results flagged for a closer look

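Outside the named genes, 13522 probe sets had no single gene symbol here (56 control probe sets of the array not counted) and entered none of the comparisons above. Of these, 1885 differed between shBAP1 #2 and shBAP1 #1 in limma, fitted and adjusted over the whole probe set table (13.9%, adjusted p below 0.05), 895 higher and 990 lower. They drew attention as signal in data that the report does not use.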

How the results depend on the processing

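The counts of genes higher and lower with shBAP1 #2 stayed within 1.5 times of 3382 and 3478 in all 18 alternatives, with 2552 and 2490 where shared-probe sets were left out as the lowest of the 9 that keep every array and 3744 and 3861 with array weights as the highest. Leaving out 1 array gave 2818 to 3453 higher and 2926 to 3627 lower (5793 to 7080 in all), and at least 1.5-fold 1255 to 1479 and 1451 to 1863. Same-numbered arrays of the hairpins did not deviate together (r between -0.21 and 0.04), so the replicate numbers do not pair the 2 groups compared. The r of same-numbered arrays was 0.11 to 0.22 for shControl and shBAP1 #1, above that of differently numbered ones (-0.22 to 0.04). For shControl and shBAP1 #2 it was -0.11 to 0.18 against -0.24 to 0.18. The fit with the replicate block gave 3338 higher and 3449 lower, and 4 instead of 2 genes higher in the HOX, PBX and MEIS list. Of 328 named genes, 265 were called in the same direction under every one of the 18 alternatives that gave them a value. Other probe sets existed for 234 of the 328 and are given above only for some. For 74 genes at least 1 other probe set pointed the other way. With shared-probe sets left out, the sign turned for PPAT (-0.17), H2AZ2 (0.28), AKR1C1 (-0.12), GLRX3 (-0.30), TGFB2 (0.31), FGF5 (0.05), FGFR2 (0.00), RPS6 (-0.04), SLC2A1 (-0.01), NSD2 (0.11), MBNL1 (-0.58), SF1 (0.06), KIF5C (-0.01), CDH11 (0.11) and PTPRC (0.03), and for H2AZ2 also with the mean of its probe sets (0.12). That setting reads another probe set and tests fewer genes. It also lowered several counts by over 1.5 times, and not all are listed. Among them were splicing factors lower, 17 of 55 to 9 of 46, and tubulin genes lower, 16 of 43 to 9 of 35. Hippo genes higher fell from 10 of 32 to 5 of 24, and NF-kappaB genes lower from 9 of 42 to 5 of 30. AP-1 genes higher fell from 9 of 27 to 4 of 19, BMP genes lower from 8 of 25 to 4 of 19. Wnt genes lower fell from 9 of 45 to 5 of 36, HOX, PBX and MEIS genes lower from 7 of 31 to 3 of 26. Mesenchymal markers lower fell from 5 of 18 to 1 of 14. Levels below 5.44 are limited by background.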
